A study of Mus musculus with 24 samples.

Results

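The soleus (SOL) was compared with the gastrocnemius (GAS) of young mice that had run on a treadmill (young exercised, YE). The 6 libraries were taken by their labels, 3 of SOL YE and 3 of GAS YE, out of 24 libraries of the whole series, and all 18795 genes of the table entered the comparison. The labels number the libraries of both muscles 1, 2 and 4, and both muscles were taken from each of 3 mice. The mice were male C57BL/6, 9 weeks old by the label, housed singly with free food and water, and were trained on an inclined treadmill for 4 weeks. The comparison groups used beside them were SOL and GAS of trained old mice (OE, 84 weeks, 4 weeks of training), untrained young mice (YC, 9 weeks) and untrained old mice (OC, 84 weeks), with 3 libraries per muscle and group. The labels name no allele and no drug. Whole muscle was used, so a level is an average over every fiber and cell in the sample.

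Both muscles lie in the calf and act on the same tendon, but they are built from different fibers. In the mouse, the soleus holds mostly slow (type I) and fast oxidative (type IIA) fibers, which are rich in myoglobin and mitochondria and resist fatigue. The gastrocnemius holds mostly fast glycolytic (type IIB) fibers, which contract quickly, store glycogen and make lactate. Many contractile and calcium-handling proteins exist as a pair of paralogs, one for slow and one for fast fibers, and a fiber type is defined by the myosin heavy chain it uses. The comparison asks how far the muscles of trained young mice differ gene by gene.

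Levels are given as FPKM, fragments scaled to transcript length and to the mapped fragments of the library, in the order of libraries 1, 2 and 4. Fold changes are on the log2(FPKM + 1) scale after quantile normalization, which understates the change of low genes, and are SOL YE over GAS YE. A gene is said to be higher in a muscle when its adjusted p (limma, Benjamini-Hochberg over all genes) was under 0.05. In FPKM the 10 most abundant genes took 16.5% to 19.4% of the total in SOL YE and 31.9% to 35.7% in GAS YE, and 10928 to 11207 genes against 10134 to 10575 genes reached 1 FPKM. Within a muscle the 3 libraries correlated at 0.988 to 0.991 in SOL YE and at 0.984 to 0.987 in GAS YE across genes, which are not independent replicates. Depth per library is unknown, since FPKM hold no counts. There were 3 libraries a group, and the limma p-values rest on the spread within groups pooled over all 24 libraries (16 residual degrees of freedom). They do not measure the spread between the YE mice alone.

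Of 10 skeletal muscle markers, 6 were higher in SOL, none in GAS and 4 did not pass. With median-ratio scaling 5 were higher in SOL and 2 in GAS. The 10 markers summed to 42190, 55390 and 43230 FPKM in SOL YE and to 58360, 68450 and 61860 FPKM in GAS YE. The gene with the largest FPKM was skeletal alpha-actin (Acta1) in 24 of 24 libraries of the series. Quantile normalization therefore gave Acta1 the same value in all of them. In GAS YE, library 2 stood apart from libraries 1 and 4. It had the highest level of the 3 for 73 of 73 respiratory chain genes, 17 of 17 citric acid cycle genes, 29 of 31 fatty acid genes, 8 of 8 adipocyte markers, 8 of 8 Schwann cell markers and 9 of 10 endothelial markers. Library 1 of GAS YE was highest for 10 of 10 macrophage markers and 7 of 8 fibroblast markers. The part of these cells in the results was not tested.

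In SOL YE against GAS YE, 6430 of 18795 genes (34.2%) passed the test. SOL had the higher level for 3286 (17.5%) and GAS for 3144 (16.7%). By unadjusted p under 0.05, 7772 genes (41.4%) differed, and for 8107 genes (43.1%) the normalized values of the 3 SOL and 3 GAS libraries did not overlap. DEGs, defined by an unadjusted p under 0.05 with a change of more than 2-fold, numbered 934 (4.97%), of which 483 (2.57%) were upregulated in SOL and 451 (2.4%) in GAS. Among genes that passed the test, 179 differed by over 4-fold, 90 toward SOL and 89 toward GAS, and 19 differed by over 32-fold, with 10 and 9. The even split depends on the scaling. Without quantile normalization 7813 genes passed and 78.9% of them were higher in SOL, and with median-ratio scaling 6686 genes passed and 57.0% were higher in SOL, against 51.1% as reported. The median log2 fold change of the 11637 expressed genes was 0.25 without quantile normalization and 0.01 with it, and changes are relative to these medians. Of these expressed genes, 2904 (25%) were higher in SOL and 2768 (23.8%) in GAS.

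The contractile genes of slow fibers gave the largest differences in favour of SOL. All 15 slow contractile genes were higher in SOL, with a median log2 fold change of 3.62, and the call of each held when any 1 of the 6 libraries was left out. Their summed level was 27310, 26750 and 28510 FPKM in SOL YE and 1827, 2346 and 1083 FPKM in GAS YE. Myosin heavy chain 7 (Myh7, gene ID 140781), the motor of type I fibers, was at 2363, 1876 and 2720 FPKM in SOL YE and at 74.0, 12.1 and 6.75 FPKM in GAS YE. Every SOL library was far above every GAS library, and GAS library 1 was well above the other 2. The log2 change was 6.78 (standard error, SE, 1.15, adjusted p = 0.000142).

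The slow troponins followed. Troponin C1 (Tnnc1), the calcium sensor of slow and cardiac thin filaments, was at 2493, 2407 and 2461 FPKM in SOL YE and at 109, 20.8 and 9.57 FPKM in GAS YE. The SOL libraries lay close together, while GAS library 1 again exceeded the others. Its log2 change was 6.33 (SE 1.19, adjusted p = 0.000377). Slow troponin I (Tnni1), the inhibitory subunit, and slow troponin T (Tnnt1), which binds tropomyosin, changed by 5.93 (SE 1.07) and 5.82 (SE 1.02) on the log2 scale. Tropomyosin 3 (Tpm3), the tropomyosin of slow fibers, was at 3258, 3094 and 3374 FPKM in SOL YE against 140.0, 36.9 and 18.2 FPKM in GAS YE, a log2 change of 6.19 (SE 0.92, adjusted p = 3.56e-05). Both light chains of slow myosin were high in all SOL libraries. The essential light chain Myl3 had 5127, 5814 and 4922 FPKM in SOL YE and 225.1, 241.4 and 141.9 FPKM in GAS YE, and the regulatory light chain Myl2 had 4519, 4378 and 4694 FPKM against 203.5, 215.6 and 133.6 FPKM. For the light chains, unlike the troponins, GAS library 1 was not the highest.

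On the fast side, 9 of 14 fast contractile genes were higher in GAS and none in SOL, with a median log2 fold change of -1.63. Myosin heavy chain 4 (Myh4, gene ID 17884), the motor of type IIB fibers, had the largest difference of any gene named by the rule. It was at 13.4, 13.2 and 23.6 FPKM in SOL YE and at 12400, 7128 and 13640 FPKM in GAS YE. GAS library 2 was the lowest of the GAS libraries, yet far above every SOL library. The log2 change was -8.80 (SE 0.99, adjusted p = 1.52e-06). Alpha-actinin 3 (Actn3), the Z-disc crosslinker of fast fibers, was at 7.11, 5.59 and 16.1 FPKM in SOL YE and at 3297, 2549 and 3706 FPKM in GAS YE (log2 fold change -8.43, SE 0.89). Fast myosin-binding protein C (Mybpc2) had 23.0, 12.2 and 33.9 FPKM in SOL YE against 1990, 1357 and 2105 FPKM in GAS YE (log2 fold change -6.56, SE 0.59). Parvalbumin (Pvalb), the calcium buffer that speeds relaxation of fast fibers, had 48.2, 31.3 and 68.7 FPKM in SOL YE against 7780, 6132 and 7783 FPKM in GAS YE, a log2 change of -6.72 (SE 0.59, adjusted p = 9.49e-08).

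The 5 fast contractile genes that did not pass include 4 of the most abundant genes of both muscles, and their values depend on the normalization. Fast troponin T (Tnnt3) was at 7824, 9497 and 8316 FPKM in SOL YE and 21540, 19140 and 23970 FPKM in GAS YE, and the FPKM of the muscles did not overlap. It ranked 2, 3 and 2 among all genes in SOL and 2, 3 and 2 in GAS, and quantile normalization gives equal ranks equal values, so its log2 fold change was 0.00. Without quantile normalization it was -1.33 (adjusted p = 0.00224). Fast troponin C (Tnnc2), fast troponin I (Tnni2) and tropomyosin 1 (Tpm1) had log2 fold changes of -0.14, 0.04 and -0.32 and did not pass, against -1.49, -1.39 and -1.76 without quantile normalization, all 3 passing. The muscle creatine kinase Ckm and the fast calcium pump Atp2a1 were of the same kind, at -0.41 and -0.31 against -1.81 and -1.69. Without quantile normalization, and likewise with median-ratio scaling, 13 of the 14 fast genes were higher in GAS. The fifth gene, myosin heavy chain 1 (Myh1), was at 869, 713 and 1178 FPKM in SOL YE and 709, 1450 and 763 FPKM in GAS YE, and the muscles overlapped.

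The ratio of a slow paralog to its fast partner within a library does not depend on the scaling between libraries. In 13 of 13 pairs the ratio was higher in each SOL YE library than in any GAS YE library. The log2 ratios differed by 4.50 (lactate dehydrogenases Ldhb over Ldha) to 16.33 (Myh7 over Myh4), with a median of 7.35 over the pairs. The exact permutation test (two-sided) gave p = 0.1 for each pair, which is the smallest that 3 against 3 libraries allow. For alpha-actinin, the non-fast form Actn2 made up 99.6%, 99.7% and 99.1% of the pair in SOL YE and 8.65%, 16.8% and 6.79% in GAS YE. For troponin C, the slow form was the minor one even in SOL, at 33.7%, 26.2% and 35.5% in SOL YE and 0.750%, 0.133% and 0.0651% in GAS YE. The slow tropomyosin Tpm3 made up 44.6%, 40.3% and 45.8% of Tpm3 and Tpm1 in SOL YE and 0.878%, 0.323% and 0.113% in GAS YE. For Myh7 over Myh4, Actn2 over Actn3 and Mybpc1 over Mybpc2 the slow form thus held nearly the whole pair in SOL, while for troponin C, I and T, tropomyosin, the calcium pump and calsequestrin the fast form stayed above the slow form in both muscles.

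**Figure D1:**
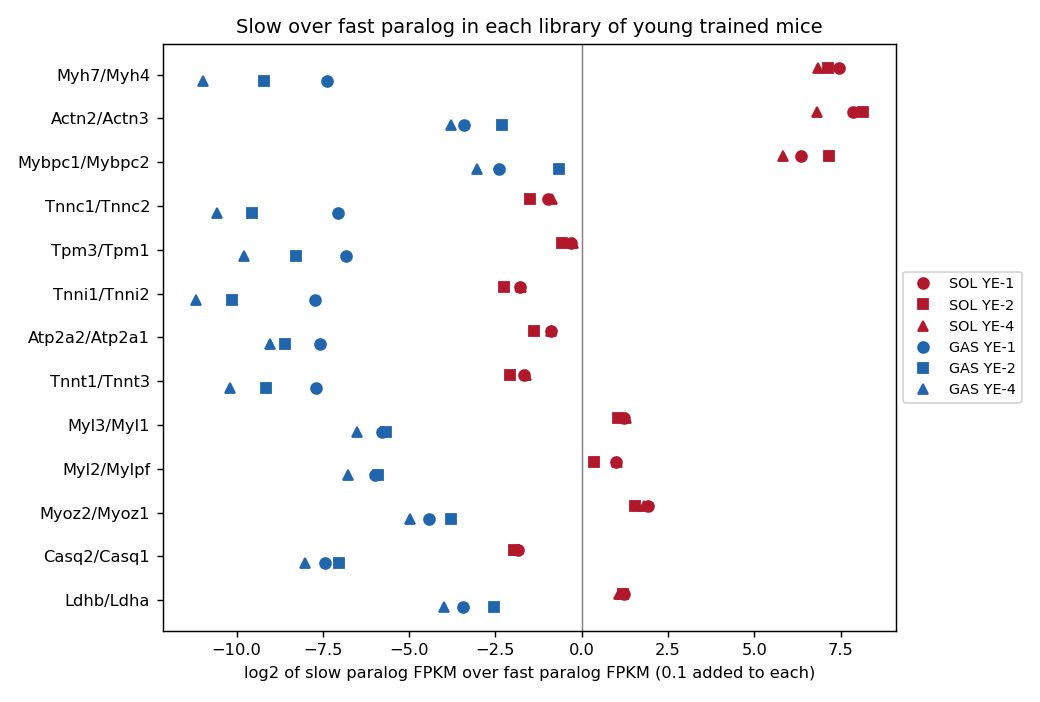
Log2 ratio of slow over fast paralog FPKM (0.1 added to each) in each of the 3 SOL YE and 3 GAS YE libraries, 1 line per pair, with the vertical line at equal levels. The SOL libraries lie right of the GAS libraries in all 13 pairs, by 4.50 to 16.33 between the means.

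The myosin heavy chains are the genes by which fibers are typed. In SOL YE, Myh2 (type IIA) took 47.8%, 52.9% and 46.0% of the summed FPKM of the 4 adult chains, Myh7 took 38.0%, 34.0% and 37.5%, Myh1 (type IIX) took 14.0%, 12.9% and 16.2%, and Myh4 took 0.215%, 0.239% and 0.325%. In GAS YE, Myh4 took 89.9%, 74.4% and 91.6%, Myh1 5.14%, 15.1% and 5.12%, Myh2 4.43%, 10.4% and 3.26%, and Myh7 0.536%, 0.126% and 0.0454%. GAS library 2 thus held more of the IIA and IIX chains and less of the IIB chain than the other GAS libraries. Myh2 was higher in SOL by 2.18 on the log2 scale (SE 0.44, adjusted p = 0.000714). Of the 9 myosin heavy chains measured, 5 were higher in SOL, 2 in GAS and 2 did not pass. The chains of other tissues and stages also split. Myh6 (cardiac alpha) was at 94.0, 77.1 and 103.7 FPKM in SOL YE against 3.14, 1.47 and 0.491 FPKM in GAS YE, and Myh7b, a slow-type chain, was at 21.3, 19.5 and 22.1 FPKM against 1.01, 0.772 and 0.130 FPKM. Embryonic Myh3 was higher in SOL (log2 fold change 2.00) and neonatal Myh8 higher in GAS (-1.51). Myh13, the chain of eye muscles, had a log2 fold change of 0.34 and did not pass. Myh3, Myh2, Myh1, Myh4, Myh8 and Myh13 lie side by side on mouse chr11:67078273-67371587, and Myh6 and Myh7 on chr14:54941921-54994626 (GRCm38.p6), so 2 genes of the first cluster were higher in each muscle and 2 did not pass.

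**Figure D2:**
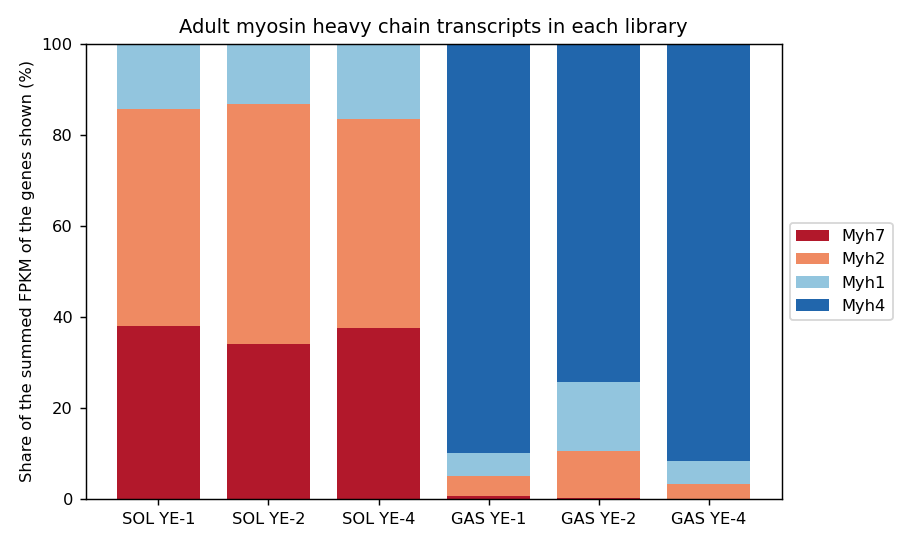
Share (%) of each of 4 adult myosin heavy chains in their summed FPKM, 1 stacked bar per library. Myh7 and Myh2 fill most of the 3 SOL YE bars, and Myh4 takes 74.4% to 91.6% of the 3 GAS YE bars.

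The promoters of 3 slow genes and their fast partners are shown because each pair codes for the same part of the fiber and went in opposite directions in FPKM. They are the troponins C, the essential myosin light chains and the calsequestrins, the calcium stores of the sarcoplasmic reticulum. Each sequence is the 250 bases upstream of a start given by RefSeq on the gene's own strand (GRCm38.p6), which is chr14:31208062-31208311 (plus) for Tnnc1, chr2:164779735-164779984 (minus) for Tnnc2, chr9:110763428-110763677 (plus) for Myl3, chr1:66945057-66945306 (minus) for Myl1, chr3:102086165-102086414 (plus) for Casq2 and chr1:172219896-172220145 (minus) for Casq1. For Myl1 that start lies inside the annotated gene (chr1:66924295-66947932), and for the other 5 it is the start of the annotated gene. Capitals mark the E-box CANNTG, the motif read by myogenic bHLH factors, and the MCAT motif CATTCC, the motif read by TEAD factors, on either strand (GGAATG is the MCAT of the other strand).
Tnnc1: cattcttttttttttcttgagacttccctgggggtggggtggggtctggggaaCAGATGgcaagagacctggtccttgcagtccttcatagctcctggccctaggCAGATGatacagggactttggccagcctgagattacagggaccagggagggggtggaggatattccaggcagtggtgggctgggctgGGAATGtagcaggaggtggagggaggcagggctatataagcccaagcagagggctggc
Tnnc2: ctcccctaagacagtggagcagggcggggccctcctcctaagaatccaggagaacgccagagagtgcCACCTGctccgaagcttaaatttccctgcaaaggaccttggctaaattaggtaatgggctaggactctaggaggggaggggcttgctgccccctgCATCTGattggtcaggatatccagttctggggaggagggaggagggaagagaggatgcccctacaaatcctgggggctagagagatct
Myl3: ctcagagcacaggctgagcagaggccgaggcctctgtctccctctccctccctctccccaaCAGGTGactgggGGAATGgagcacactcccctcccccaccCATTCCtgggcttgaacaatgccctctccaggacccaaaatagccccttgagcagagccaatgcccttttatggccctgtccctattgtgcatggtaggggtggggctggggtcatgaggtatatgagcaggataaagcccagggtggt
Myl1: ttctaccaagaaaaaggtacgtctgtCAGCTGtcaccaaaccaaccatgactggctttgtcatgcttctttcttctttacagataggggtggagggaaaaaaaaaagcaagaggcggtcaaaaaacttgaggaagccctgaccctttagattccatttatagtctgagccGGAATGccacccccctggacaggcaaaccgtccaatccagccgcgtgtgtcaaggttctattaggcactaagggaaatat
Casq2: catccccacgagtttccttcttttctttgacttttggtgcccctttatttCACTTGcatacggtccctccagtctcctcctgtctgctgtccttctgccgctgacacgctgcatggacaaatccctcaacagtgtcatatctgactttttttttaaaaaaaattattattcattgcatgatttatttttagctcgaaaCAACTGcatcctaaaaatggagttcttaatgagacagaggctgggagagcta
Casq1: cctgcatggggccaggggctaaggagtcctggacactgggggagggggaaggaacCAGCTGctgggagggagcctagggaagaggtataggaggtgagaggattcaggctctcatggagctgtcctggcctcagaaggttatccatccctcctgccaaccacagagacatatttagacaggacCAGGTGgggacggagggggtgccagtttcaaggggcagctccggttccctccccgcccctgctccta

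Slow and fast partners held the same number of E-boxes in each of the 3 pairs, with 2 in both troponin C promoters, 1 in both light chain promoters and 2 in both calsequestrin promoters. MCAT motifs stood in Tnnc1 (1), Myl3 (2) and Myl1 (1). In windows of the same length, 66.2% of 32851 promoters held an E-box and 12.6% an MCAT. Of the promoters of the slow contractile genes, 20 of 20 (15 genes, some with several starts) held an E-box and 3 of 20 an MCAT, and of the fast contractile genes 7 of 9 (8 genes) held an E-box and 5 of 9 an MCAT. A match describes the letters only and says nothing of binding.

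Calcium release and uptake genes went both ways, with more of them higher in GAS. Of 26 genes, 6 were higher in SOL, 11 in GAS and 9 did not pass, with a median log2 fold change of -0.16. The shares of all genes were 17.5% in SOL and 16.7% in GAS. Of the 11, 8 held without any 1 library. With median-ratio scaling 5 were higher in SOL and 15 in GAS, with a median of -0.384. The slow calcium pump SERCA2 (Atp2a2), which refills the sarcoplasmic reticulum, was at 1978, 1613 and 2188 FPKM in SOL YE and at 65.2, 32.6 and 25.1 FPKM in GAS YE, with a log2 change of 5.43 (SE 0.66, adjusted p = 3.97e-06). Small proteins that inhibit calcium pumps also differed. Sarcolipin (Sln) was at 33.8, 65.8 and 38.2 FPKM in SOL YE against 1.35, 2.16 and 0.971 FPKM in GAS YE (log2 fold change 4.01), and phospholamban (Pln) was higher in SOL by 0.98 on the log2 scale. Myoregulin (Mrln), another pump inhibitor, went the other way, with 8.79, 11.8 and 8.30 FPKM in SOL YE and 74.1, 64.6 and 65.7 FPKM in GAS YE (log2 fold change -2.89). The calsequestrins were split likewise, with Casq2 at 141.3, 136.0 and 136.1 FPKM in SOL YE against 10.5, 12.9 and 6.75 FPKM in GAS YE, and Casq1 at 507, 531 and 523 FPKM against 1842, 1703 and 1775 FPKM. Rcan1, a feedback inhibitor of the phosphatase calcineurin, was higher in SOL (2.18), and the calcium/calmodulin kinase Camk2a was higher in GAS (-2.40) while Camk2b was higher in SOL (0.36). The calcium release channel Ryr1 and its voltage sensor Cacna1s were at log2 fold changes of -0.04 and -0.08 and did not pass.

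Of 18 genes of excitability and ion transport, 7 were higher in SOL and 6 in GAS, against 17.5% and 16.7% of all genes, and 5 did not pass. The subunits of the sodium pump parted. The beta-2 subunit Atp1b2 was at 5.93, 4.78 and 6.76 FPKM in SOL YE and at 85.6, 71.9 and 98.8 FPKM in GAS YE (log2 fold change -3.85, SE 0.22, adjusted p = 4.44e-10). The beta-1 subunit Atp1b1 had 264.6, 242.2 and 248.1 FPKM in SOL YE against 63.4, 104.4 and 45.7 FPKM in GAS YE (1.84). The potassium channel Kcnc4 was higher in GAS (-2.86) and the calcium-activated potassium channel Kcnn3 higher in SOL (1.24). The chloride channel Clcn1, which stabilises the resting membrane, and the sodium channel Scn4a, which carries the action potential, were higher in GAS by less than 1 on the log2 scale (-0.74 and -0.35).

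Genes of glycolysis were mostly higher in GAS. Of 23 genes of glycolysis and lactate transport, 17 were higher in GAS, 4 in SOL and 2 did not pass, with a median log2 fold change of -1.56, and 16 of the 17 held without any 1 library. Lactate dehydrogenase A (Ldha), which makes lactate, was at 457.7, 486.3 and 474.2 FPKM in SOL YE and at 1954, 1897 and 1949 FPKM in GAS YE. The libraries of each muscle lay close together and far from the other muscle. The log2 change was -2.27 (SE 0.10, adjusted p = 3.27e-11). The muscle phosphofructokinase Pfkm, which commits glucose to glycolysis, changed by -1.56, and Pgam2, Pkm, Tpi1 and Gapdh, enzymes of the lower steps, by -1.91, -1.79, -1.70 and -1.54. The 4 genes that went against the list were Ldhb, the lactate-consuming form, Slc16a1, a lactate importer, the hexokinase Hk1 and the glucose transporter Slc2a1. Ldhb was at 1076, 1121 and 998 FPKM in SOL YE and 179.3, 325.8 and 122.8 FPKM in GAS YE (log2 fold change 2.31, SE 0.63, adjusted p = 0.00769). Slc16a1 changed by 1.67. The calls of Hk1 (0.35) and Slc2a1 (0.51) were lost without GAS library 4, where they were 0.25 and 0.37, and also without SOL libraries 1 or 2 (Hk1) and without GAS library 1 or SOL libraries 2 or 4 (Slc2a1). The insulin-responsive transporter Slc2a4, at 224.9, 237.2 and 261.8 FPKM in SOL YE and 205.5, 237.8 and 228.6 FPKM in GAS YE, overlapped.

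Glycogen genes parted by step. Of 15, 7 were higher in GAS, 4 in SOL and 4 did not pass. Most of those higher in GAS act in its breakdown, among them the phosphorylase Pygm at 767, 839 and 896 FPKM in SOL YE and 3760, 3193 and 4103 FPKM in GAS YE (log2 fold change -2.16, SE 0.10, adjusted p = 4.04e-11). The phosphorylase kinase subunits Phkg1, Phkb and Phka1 changed by -2.40, -1.90 and -1.76. Stbd1, which tethers glycogen to membranes, and the phosphoglucomutase Pgm2 were also higher in GAS. The genes higher in SOL include the enzymes that build it, namely the branching enzyme Gbe1 at 85.0, 80.8 and 98.6 FPKM in SOL YE and 22.7, 31.7 and 22.3 FPKM in GAS YE (1.68), the synthase Gys1 (0.56) and the primer glycogenin Gyg (0.44). The remaining gene was Pgm1 (0.40), which lost its call without GAS library 4 (0.29) and without SOL library 4 (0.37). With the equal-variance test Gys1, Gyg and Pgm1 lost their calls, which left 1 glycogen gene higher in SOL. The call of Gys1 was also lost with only the libraries compared, and that of Gyg with median-ratio scaling.

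Fatty acid genes were nearly all higher in SOL. Of 31 genes of uptake and oxidation, 27 were higher in SOL, 1 in GAS and 3 did not pass, with a median log2 fold change of 1.09, and 26 of the 27 held without any 1 library. Acyl-CoA synthetase Acsl1, which activates fatty acids, was at 181.8, 175.6 and 200.7 FPKM in SOL YE and at 66.0, 72.6 and 58.5 FPKM in GAS YE. No GAS library approached the lowest SOL library. The log2 change was 1.42 (SE 0.14, adjusted p = 4.08e-07). The medium-chain dehydrogenase Acadm (1.40), the carnitine transferase Cpt1b, which admits fatty acids to mitochondria (1.09), and the trifunctional enzyme subunit Hadhb (1.35) moved alike. The exception was uncoupling protein 3 (Ucp3), a mitochondrial carrier, at 10.7, 12.5 and 27.5 FPKM in SOL YE and 29.0, 31.5 and 45.2 FPKM in GAS YE (log2 fold change -1.27, SE 0.35, adjusted p = 0.00866). In both muscles library 4 was the highest for it, and the call was lost without SOL library 1 (adjusted p = 0.0564 in limma). Of 5 ketone body genes, 3 were higher in SOL, among them the ketone dehydrogenase Bdh1 (2.73), at 121.8 to 127.1 FPKM in SOL YE and 12.4 to 23.6 FPKM in GAS YE.

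Of 21 genes of branched-chain amino acid breakdown, 15 were higher in SOL and 1 in GAS, with a median of 0.42. Of the 15, 12 held without any 1 library. The largest was isovaleryl-CoA dehydrogenase (Ivd), a step of leucine breakdown, at 135.2, 140.2 and 142.9 FPKM in SOL YE and 63.4, 80.4 and 55.0 FPKM in GAS YE (1.03). The gene higher in GAS was Slc25a44, the carrier that brings these amino acids into mitochondria, at 8.53, 9.13 and 9.08 FPKM in SOL YE and 9.78, 9.80 and 10.1 FPKM in GAS YE (-0.39). Its call was lost without quantile normalization, where 16 genes of the list were higher in SOL and none in GAS. Of 17 citric acid cycle genes, 11 were higher in SOL, none in GAS and 6 did not pass, with a median of 0.37. The largest was the NADP-linked isocitrate dehydrogenase Idh2, at 1180, 1234 and 1163 FPKM in SOL YE and 200.5, 311.9 and 151.7 FPKM in GAS YE (2.40, SE 0.46, adjusted p = 0.000446). The NAD-linked form of that step did not pass. The count for the cycle was not stable, with 6 genes higher in SOL without GAS library 4 or without SOL library 2, and 4 in SOL and 1 in GAS with median-ratio scaling.

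The respiratory chain did not go with SOL as a group. Of 73 genes, 9 were higher in SOL, 14 in GAS and 50 did not pass, with a median of -0.05. Of all genes, 17.5% were higher in SOL and 16.7% in GAS. Higher in SOL were among others Ndufs1 (0.81) and Ndufb5 (0.47) of complex I and Uqcrc2 (0.71) of complex III. Higher in GAS were among others Ndufb4, a complex I subunit, at 182.5, 216.7 and 172.6 FPKM in SOL YE and 320.5, 381.1 and 316.3 FPKM in GAS YE (-0.85, SE 0.08, adjusted p = 2.20e-07), and Ndufa4 (-0.88) and Ndufc1 (-0.54). The balance turned with 1 library and with the scaling. Without GAS library 2, which had the highest level of all 73 genes among the GAS libraries, 16 genes were higher in SOL and 9 in GAS. Without quantile normalization 12 were higher in SOL and 5 in GAS, and with median-ratio scaling 4 and 16. The summed FPKM overlapped, with 30560, 36760 and 30360 in SOL YE and 27190, 37230 and 25840 in GAS YE, and library 2 was the highest of both muscles.

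**Figure D3:**
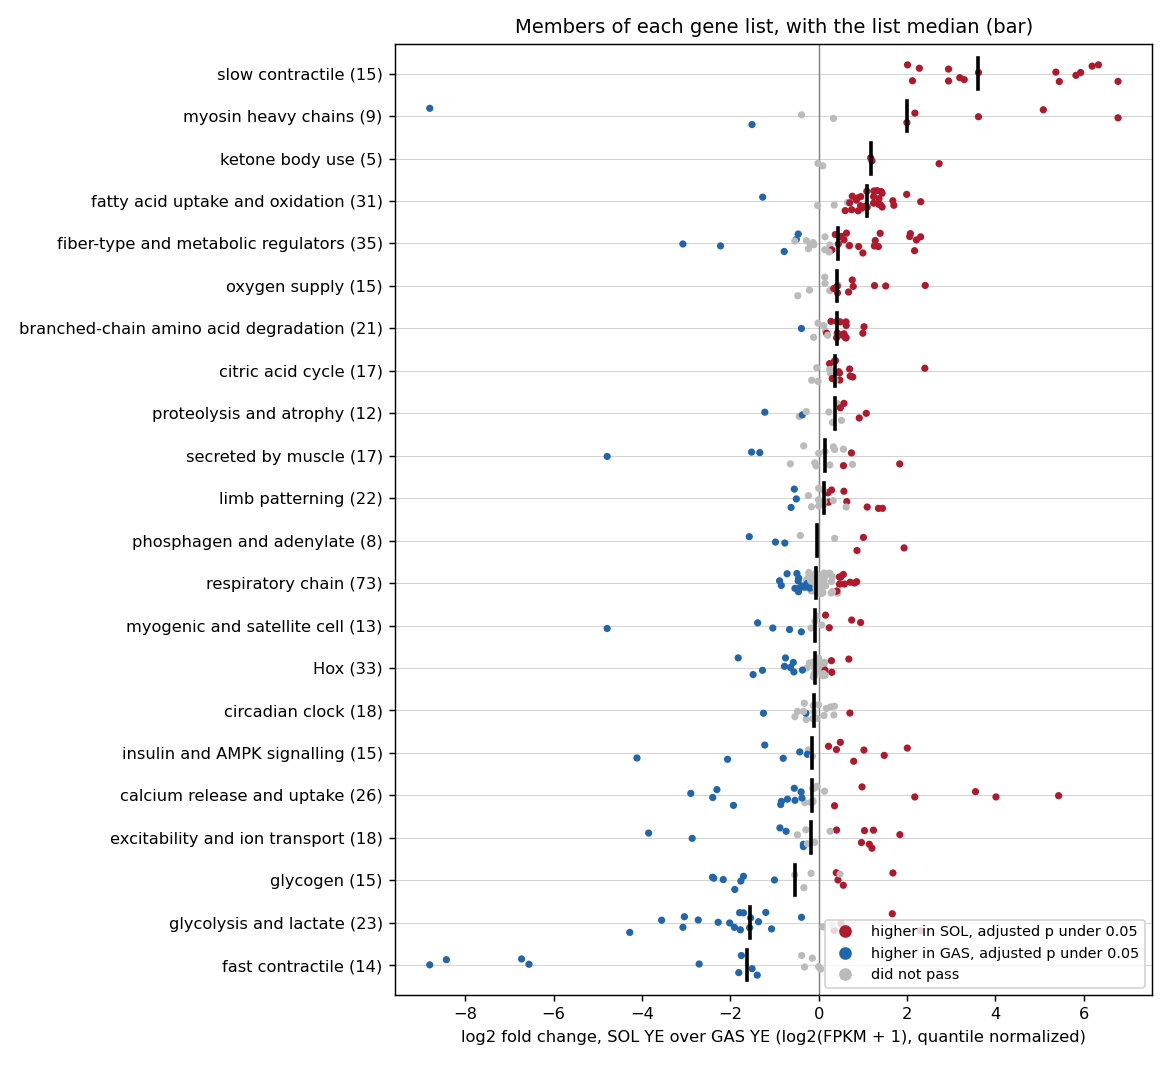
Log2 fold change of SOL YE over GAS YE for each member of each gene list (number of genes in brackets), coloured by its test, with a bar at the list median. The slow contractile and fatty acid lists lie right of 0 (medians 3.62 and 1.09), the glycolysis and fast contractile lists left of it (-1.56 and -1.63, where quantile normalization holds several of the most abundant fast genes near 0), and the respiratory chain sits around 0 (-0.05).

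Phosphagen and adenylate genes again went by isoform. The mitochondrial creatine kinase Ckmt2 was at 2438, 2800 and 2464 FPKM in SOL YE and at 924, 1662 and 838 FPKM in GAS YE (log2 fold change 1.01), and the creatine transporter Slc6a8 was higher in SOL (0.87). AMP deaminase 3 (Ampd3) was at 20.9, 18.1 and 24.5 FPKM in SOL YE against 3.78, 4.41 and 3.42 FPKM in GAS YE (1.93), whereas Ampd1, the muscle form, had 183.9, 171.1 and 182.0 FPKM against 508.3, 468.6 and 548.9 FPKM (-1.57). Adenylate kinase 1 (Ak1), which rebalances adenine nucleotides, was higher in GAS (-0.98).

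Of 15 genes of insulin and AMPK signalling, 7 were higher in SOL and 6 in GAS, against 17.5% and 16.7% of all genes. The gamma-3 subunit of AMPK (Prkag3), found in fast glycolytic fibers, was at 4.09, 4.64 and 5.17 FPKM in SOL YE and at 95.4, 70.2 and 87.8 FPKM in GAS YE, with a log2 change of -4.11 (SE 0.22, adjusted p = 2.98e-10). Its beta-2 partner Prkab2 was also higher in GAS (-2.06) and the gamma-1 subunit Prkag1 higher in SOL (0.49). The insulin receptor Insr (0.79), its substrate Irs2 (1.48) and Tbc1d4 (1.03), which holds back the glucose transporter until insulin acts, were higher in SOL, while Tbc1d1, the relative that answers to AMPK, was higher in GAS (-1.22). Phosphoinositide-3-kinase regulatory subunit 1 (Pik3r1), which couples the receptor to its kinase, was at 18.2, 19.1 and 22.0 FPKM in SOL YE and at 3.04, 4.59 and 2.60 FPKM in GAS YE. The muscles were well apart, and the log2 change was 2.01 (SE 0.27, adjusted p = 1.08e-05).

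Of 35 regulators of fiber type and metabolism, 19 were higher in SOL, 5 in GAS and 11 did not pass. Large Maf factors, which in the mouse drive the IIB program, were among the genes higher in GAS. Maf was at 4.01, 3.95 and 3.45 FPKM in SOL YE and at 43.8, 26.1 and 33.4 FPKM in GAS YE (log2 fold change -3.07, SE 0.18, adjusted p = 6.64e-10), and Mafa changed by -2.22. Sox6, a repressor of slow genes, and Tbx15, a factor of glycolytic fibers, were higher in GAS (log2 fold changes -0.78 and -0.51). Higher in SOL were Prox1, needed for the slow program, at 5.53, 3.28 and 6.56 FPKM in SOL YE and 0.219, 0.225 and 0.173 FPKM in GAS YE (2.08), the TEAD cofactor Vgll2 at 126.9, 167.0 and 167.5 FPKM against 21.1, 47.0 and 21.8 FPKM (2.31), and Tead1 (1.39). The nuclear receptors of oxidative metabolism also stood in SOL, with Esrrg at 23.9, 26.6 and 27.5 FPKM in SOL YE against 4.11, 5.32 and 3.10 FPKM in GAS YE (2.17), Esrrb (2.21) and Ppara (2.06). Their coactivator Ppargc1a was at 10.9, 8.96 and 12.9 FPKM in SOL YE and 6.31, 6.47 and 5.41 FPKM in GAS YE (0.47, adjusted p = 0.0129), and its call was lost without SOL library 4 (0.35), while Ppargc1b changed by 1.00. The calcineurin-regulated Nfatc2 was higher in SOL (1.35), and Nfatc1, at 0.14, did not pass.

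Of 33 Hox genes, 4 were higher in SOL, 9 in GAS and 20 did not pass. Without GAS library 1, 2 were higher in SOL, and without GAS library 4, 6 were higher in GAS. The balance turned without quantile normalization, with 9 in SOL and 5 in GAS, and the equal-variance test gave 2 and 3. In all, 13 of 33 Hox genes and 11 of 22 limb patterning genes passed, against 34.2% of all genes. By cluster, the Hoxd genes gave 2 in SOL and 3 in GAS of 6, the Hoxa genes 1 and 4 of 11, the Hoxc genes 1 and 2 of 8, and none of 8 Hoxb genes passed. Hoxd9 was at 1.54, 1.53 and 1.81 FPKM in SOL YE and at 9.41, 3.41 and 9.01 FPKM in GAS YE (log2 fold change -1.82, SE 0.29, adjusted p = 6.63e-05), and its neighbour Hoxd10 at 0.263, 0.417 and 0.267 FPKM against 3.27, 1.22 and 2.60 FPKM (-1.48). GAS library 2 was the lowest of the GAS libraries for both. Hoxc10, the most abundant Hox gene here, was at 31.9, 30.6 and 32.2 FPKM in SOL YE and 48.6, 40.6 and 50.3 FPKM in GAS YE (-0.64). Of 22 other limb patterning genes, 8 were higher in SOL and 3 in GAS. Without GAS library 1 or SOL library 4, 6 were higher in SOL. The mouse as a block in the 6 YE libraries alone gave 4 in SOL and 3 in GAS. Without quantile normalization the counts were 12 and 3. Tbx15 belongs both to this list and to the regulators. Tbx3 was at 5.45, 4.70 and 5.61 FPKM in SOL YE and 1.37, 2.03 and 0.891 FPKM in GAS YE (1.10). Of 13 myogenic genes, 4 were higher in SOL and 5 in GAS, against 17.5% and 16.7% of all genes. Without GAS library 2, SOL library 1 or SOL library 4, 2 were higher in SOL. Myostatin (Mstn), the secreted brake on muscle growth, was at 0.362, 0.278 and 0.462 FPKM in SOL YE and at 41.9, 23.3 and 41.5 FPKM in GAS YE, with a log2 change of -4.79 (SE 0.31, adjusted p = 2.48e-09). Its antagonist follistatin (Fst) was higher in SOL (0.95), and the myogenic factor Myod1 higher in GAS (-1.38).

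Among the other genes with the largest differences were several enzymes and binding proteins higher in GAS. Spermine oxidase (Smox), which turns spermine to spermidine, was at 6.43, 5.74 and 5.92 FPKM in SOL YE and at 260.4, 186.8 and 304.0 FPKM in GAS YE (log2 fold change -5.26, SE 0.26, adjusted p = 1.00e-10). Adenosylmethionine decarboxylase (Amd2), which feeds the same polyamine pathway, was at 24.02, 25.66 and 24.05 FPKM in SOL YE and 605, 301.9 and 548 FPKM in GAS YE. Reads may be shared with its near copy Amd1, and the 2 together came to 24.2, 25.7 and 25.7 FPKM in SOL YE and 605, 301.9 and 548 FPKM in GAS YE. Mss51, a muscle mitochondrial protein, was at 0.392, 0.552 and 0.507 FPKM in SOL YE against 80.3, 157.3 and 105.7 FPKM in GAS YE (-6.29), and the calcium-binding protein Cib2 at 7.08, 7.39 and 7.27 FPKM against 171.9, 157.8 and 145.0 FPKM (-4.43). The noncoding Myhas, in the fast myosin cluster, was at 0.358, 0 and 0.297 FPKM in SOL YE and 42.4, 42.4 and 49.3 FPKM in GAS YE. The strand setting of the quantification is not given in the sources used here, so reads of Myhas and of genes overlapping it cannot be told apart. Odf3l2 was listed at 0 in SOL libraries 1 and 2 and was at 0.0872 FPKM in SOL library 4, against 24.99, 42.91 and 49.71 FPKM in GAS YE.

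Both alpha-globin genes also met that rule, in opposite directions, with Hba-a2 at 144.2, 11.1 and 167.3 FPKM in SOL YE and 0.153, 0.181 and 0.130 FPKM in GAS YE, and Hba-a1 at 4.12, 0 and 0.0895 FPKM against 65.7, 39.4 and 154.8 FPKM. The copies are near identical, and their sum was 148.4, 11.1 and 167.4 FPKM in SOL YE and 65.9, 39.5 and 154.9 FPKM in GAS YE, which overlap. The split between copies is therefore uncertain, and the call of Hba-a1 was lost without GAS library 4 (-4.95, adjusted p = 0.0519).

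**Figure D4:**
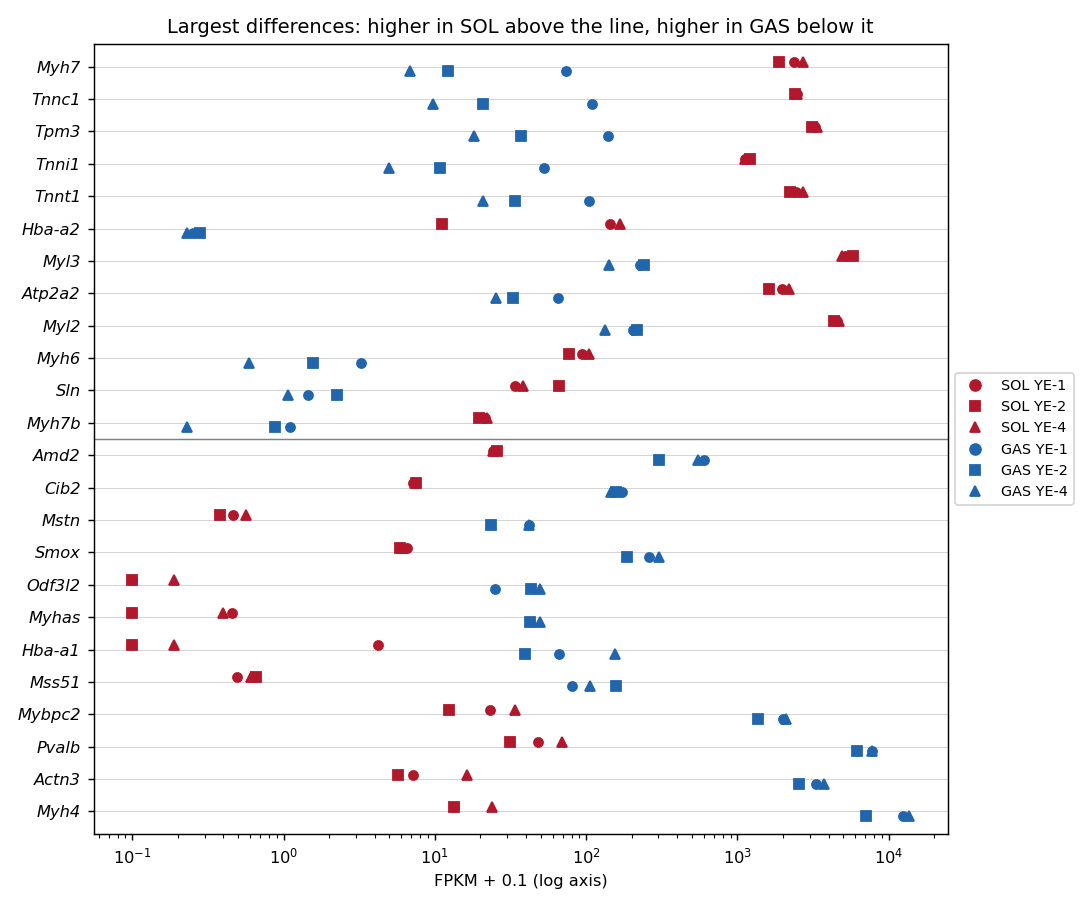
FPKM + 0.1 (log axis) in each SOL YE and GAS YE library for the 12 genes with the largest log2 fold changes in favour of SOL (above the line) and of GAS (below it). The libraries of the muscles do not overlap for any gene shown, and the assignment of reads to Hba-a1, Hba-a2, Amd2 and Myhas is uncertain.

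Most oxygen supply genes were higher in SOL, but the count was not stable. Of 15 genes, 9 were higher in SOL and none in GAS, and 6 were higher in SOL without GAS library 4 or without SOL library 1. Of the 9, 5 held without any 1 library. The equal-variance test gave 4 in SOL, and the mouse as a block in the 6 YE libraries alone gave 6 in SOL and 1 in GAS. Myoglobin (Mb), which stores oxygen in the fiber, was at 7342, 9689 and 7759 FPKM in SOL YE and at 1919, 4454 and 1653 FPKM in GAS YE, with library 2 the highest in both muscles (log2 fold change 2.41, SE 0.48, adjusted p = 0.000594). Angiopoietin 1 (Angpt1), a vessel growth factor, changed by 1.26 and the VEGF receptor Flt1 by 0.76. Endothelial markers went the same way, but Kdr, Tek and Tie1, all higher in SOL, belong to both lists. The counts of these lists therefore overlap. Of 10 endothelial markers 6 were higher in SOL and none in GAS (3 without GAS library 4, 4 without SOL library 1), with sums of 189.9, 169.9 and 167.4 FPKM in SOL YE and 110.9, 130.8 and 94.0 FPKM in GAS YE, led by Pecam1 (0.73). In whole muscle, more cells of a type and more RNA per cell cannot be told apart. Of 8 smooth muscle and pericyte markers 3 were higher in SOL, 1 without GAS library 1, and none without GAS library 4, SOL library 1 or SOL library 4 or with the mouse as a block. The 8 adipocyte markers summed to 934, 743 and 651 FPKM in SOL YE and 339.9, 822 and 304.8 FPKM in GAS YE, which overlap, and the 2 that passed were lost without GAS library 1, GAS library 4 or SOL library 1, with 1 left without SOL library 2 or SOL library 4. No fibroblast marker (8), Schwann cell marker (8) or lymphocyte marker (6) passed with all libraries in limma. Without GAS library 2, 3 Schwann cell markers were higher in SOL, and without GAS library 4, 1 was higher in GAS. Of the fibroblast markers, 2 were higher in GAS with the mouse as a block or with median-ratio scaling, 1 was higher in SOL without GAS library 1 or SOL library 2 or without quantile normalization, and 1 was higher in GAS without SOL library 1. The lymphocyte markers summed to under 0.36 FPKM in every library. Macrophage markers gave 2 of 10 higher in GAS, against 16.7% of all genes and 23.8% of expressed genes. With the mouse as a block 6 of these markers were higher in GAS (1 with the block in the 6 YE libraries alone). Their sums were 105.7, 100.2 and 45.1 FPKM in SOL YE and 132.0, 117.4 and 76.6 FPKM in GAS YE, lower in SOL in each of the 3 mice. Without 1 library the count was 1 without GAS library 1, GAS library 2 or SOL library 4, 3 without SOL library 2, 5 without GAS library 4 and 6 without SOL library 1. Among them Tyrobp was at 3.88, 3.59 and 2.06 FPKM in SOL YE and 7.95, 7.24 and 3.97 FPKM in GAS YE (-1.12), with library 4 the lowest in both muscles. The part of these cells in the fatty acid, citric acid and oxygen lists was not tested.

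The muscle difference was then set beside that of the other groups, each from its own 6 libraries in the same fit. The number of genes that passed was 6430 in YE, 7198 in YC, 7026 in OC and 7271 in OE. All 15 slow contractile genes were higher in SOL in each group, with medians of 3.62 in YE, 4.75 in YC, 3.46 in OC and 3.57 in OE. Fatty acid genes gave 27 higher in SOL and 1 in GAS in every group. The respiratory chain gave 9 in SOL and 14 in GAS in YE, 13 and 16 in YC, 9 and 21 in OC, and 8 and 27 in OE. Whether training shifted the muscle difference in young mice was tested as the SOL/GAS difference in YE minus that in YC. No gene passed (0 of 18795, 0%), and 665 genes (3.54%) had an unadjusted p under 0.05 in limma, against 1 gene past the adjusted threshold with the equal-variance test. By the DEG definition 12 genes (0.0638%) differed, 8 (0.0426%) toward SOL and 4 (0.0213%) toward GAS. Leaving out 1 of the 12 libraries gave 0 to 5 genes.

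The genes with the smallest p of that difference did not pass. They were Mir1905 (-0.60, adjusted p = 0.0667 in limma), which was at low FPKM, Hba-a2 (10.54, adjusted p = 0.16), whose copies may share reads, and the magnesium transporter Slc41a3 (-0.70, SE 0.13, adjusted p = 0.167). Slc41a3 was at 14.7, 13.9 and 14.7 FPKM in SOL YE and 46.2, 44.9 and 38.2 FPKM in GAS YE, with means of 25.2 ± 3.31 FPKM in untrained SOL and 45.0 ± 4.79 FPKM in untrained GAS of young mice (SD, n = 3 each). Pik3r1 had a muscle difference of 2.01 in YE and 0.67 in YC, and the change of the difference was 1.33 (SE 0.38, unadjusted p = 0.00246, adjusted p = 1 in limma). For Nr1d1, a repressor of the circadian clock, the muscle difference was -0.48 in YE (adjusted p = 0.108) and 0.14 in YC, and the change was -0.62 (adjusted p = 1 in limma). Nr1d1 was at 42.2, 25.54 and 23.98 FPKM in SOL YE and 46.0, 37.6 and 32.9 FPKM in GAS YE, which overlap.

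Between trained young and trained old mice, 26 genes (0.138%) passed for the difference of the muscle difference, 10 (0.0532%) positive, which is toward SOL in the young mice, and 16 (0.0851%) negative, and 1351 genes (7.19%) had an unadjusted p under 0.05. By the DEG definition 23 genes (0.122%) were positive and 7 (0.0372%) negative. Of the 26, 13 averaged under 1 FPKM in all 4 groups. The potassium channel subunit Kcnab1 was at 0.386, 0.402 and 0.512 FPKM in SOL YE and 1.12, 0.928 and 1.11 FPKM in GAS YE. In old trained mice it was at 0.435, 0.358 and 0.388 FPKM in SOL OE and 5.51, 4.43 and 3.82 FPKM in GAS OE. The level in SOL was alike and that in GAS was lower in the young mice, and the difference was 1.53 (SE 0.21, adjusted p = 0.00302 in limma). Amphiphysin (Amph), a membrane-bending protein of nerve terminals, had the converse pattern, at 0.637, 0.443 and 0.499 FPKM in SOL YE, 0.0474, 0.358 and 0.0959 FPKM in GAS YE, 3.37, 2.32 and 2.96 FPKM in SOL OE, and 0.269, 0.113 and 0.219 FPKM in GAS OE (-1.22). The cell-cycle ligase subunit Cdc27 was at 5.45, 5.65 and 5.23 FPKM in SOL YE, 4.60, 4.01 and 4.24 FPKM in GAS YE, 5.92, 5.47 and 5.57 FPKM in SOL OE, and 2.45, 2.25 and 1.86 FPKM in GAS OE (-0.78). Untrained mice showed a like gap by age for Kcnab1 in GAS, with means of 1.16 FPKM in YC and 5.69 FPKM in OC. The same held for Amph in SOL (0.657 FPKM in YC and 2.98 FPKM in OC). Cdc27 in GAS had no such gap in untrained mice, at 4.63 FPKM in YC and 4.79 FPKM in OC. Only Dkk3, a secreted Wnt modulator, belonged to one of the gene lists, and it averaged 0.968 ± 0.278 FPKM in SOL YE, 3.12 ± 0.0563 FPKM in GAS YE, 1.01 ± 0.176 FPKM in SOL OE and 11.1 ± 1.44 FPKM in GAS OE (SD, n = 3 each), a difference of 1.48.

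**Figure D5:**
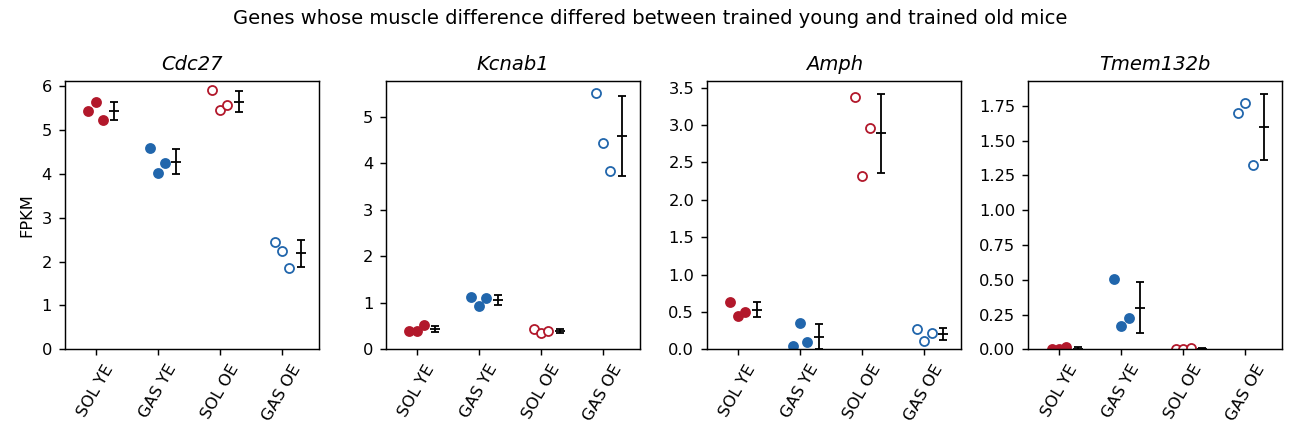
FPKM of genes whose muscle difference differed between trained young and trained old mice, with 1 point per library (n = 3) and a black mark at the mean with its SD, in SOL YE, GAS YE, SOL OE and GAS OE. Kcnab1 is low in GAS YE (0.928 to 1.12 FPKM) and high in GAS OE (3.82 to 5.51 FPKM), and Amph is low in SOL YE (0.443 to 0.637 FPKM) and high in SOL OE (2.32 to 3.37 FPKM).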

How the data were processed

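RNA of whole SOL and GAS was sequenced by the study, with libraries of 3 mice per group. Per the labels and the submitters' processing notes, reads were aligned with HISAT2 2.1.0 to mm10 and quantified with StringTie 1.3.4d. The deposited table holds FPKM for each gene in each library, and a log2(FPKM + 1) value for each, quantile normalized by the authors over all 24 libraries. A recomputation came within 5e-09 of these. The authors' own 40 comparison columns (signed fold, p-values, test statistics and group means) were not used.

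The 24 libraries were fitted by limma 3.58.1 (R 4.3.3, intensity trend) with a term per muscle and group, without a block, and SOL YE/GAS YE, and its differences from the YC and OE contrasts, were tested two-sided with Benjamini-Hochberg adjustment over 18795 genes. The expressed genes are the 11637 with at least 1 FPKM in 3 or more libraries. Pair ratios used FPKM + 0.1 and an exact permutation test. Overlap of libraries was judged on the normalized values in counts and on FPKM where FPKM are printed. Date-like symbols were turned back to gene names in 25 cases, and 18758 genes have RefSeq positions (GRCm38.p6), the source of the promoters. The code was tested on simulated data.

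SOL and GAS libraries of a mouse share its number. In YE, same-numbered deviations from the group means correlated at 0.341, 0.204 and 0.294, against -0.228 to -0.041 for other numbers. The old groups did not show this. Same numbers gave 0.072, -0.004 and 0.004 in OE (other numbers up to 0.14) and 0.12, -0.005 and -0.03 in OC (up to 0.165). The number was also fitted as a block. Other alternatives were a pseudocount of 0.1, an FPKM filter, no quantile normalization, median-ratio scaling, no intensity trend, an equal-variance test, only the libraries compared, and each library left out in turn.

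Gene lists and members were chosen with earlier results of these data known. The text names the paralog pairs and myosin heavy chains, the 12 largest changes each way among genes past the test with no overlap and at least 5 FPKM in the higher muscle, up to 6 members per list by adjusted p and those against their list, passing regulators, Hox and limb genes, the genes leading the differences between groups, the most abundant genes, and Nr1d1 and Pik3r1. Amd1, Atp1b1, Cacna1s, Colq, Fbxo32, Irs2, Nfatc1, Phka1, Prkag1, Ryr1, Slc2a4 and Trim63 fall outside that rule and were chosen after their values were seen. Some genes that the rule names are not reported here.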

Additional observations from a re-analysis of the deposited data

Results flagged for a closer look

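The genes with the smallest adjusted p (limma) for a muscle difference that was not the same in trained young and trained old mice were singled out by that test of the difference itself, and are 10 of the 26 genes (0.138%) that passed. Values are the log2 SOL/GAS difference in YE minus that in OE. They were 0.87 for Cpn1, -0.78 for Cdc27, 1.53 for Kcnab1, -1.22 for Amph, 1.13 for Tmem132b, -0.31 for Rab11fip1, -0.28 for Ryr2, 0.30 for AI847159, -0.19 for BC021891 and -0.17 for 4930415O20Rik. Cpn1, a subunit of a plasma carboxypeptidase, was at 0 to 0.0921 FPKM in GAS YE and at 0.781 to 0.906 FPKM in GAS OE. Tmem132b, a membrane protein, was at 0.506, 0.165 and 0.226 FPKM in GAS YE and at 1.70, 1.77 and 1.33 FPKM in GAS OE. The cardiac ryanodine receptor Ryr2 was at 0.0368, 0.0370 and 0.0168 FPKM in SOL YE and at 0.321, 0.233 and 0.321 FPKM in SOL OE. In untrained mice, Cpn1 in GAS averaged 0.0607 FPKM in YC and 0.852 FPKM in OC. Tmem132b in GAS averaged 0.370 and 1.60 FPKM, and Ryr2 in SOL 0.0400 and 0.461 FPKM. Cdc27 in GAS and 4930415O20Rik in SOL had no such gap by age in untrained mice. Cpn1, Rab11fip1, Ryr2, AI847159, BC021891 and 4930415O20Rik were under 1 FPKM on average in every group compared, where few fragments lie behind a value.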

How the results depend on the processing

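Leaving out each library in turn gave 5417 to 6012 genes and 888 to 1023 DEGs for SOL YE/GAS YE (6430 and 934 with all), 0 to 5 genes for YE minus YC, 23 to 41 for YE minus OE (the highest without GAS OE 1) and a median pair ratio of 6.99 to 7.87. With the replicate block, which pairs the muscles by library number, 6396 genes and 933 DEGs passed, 0 for YE minus YC and 16 for YE minus OE. The block in the 6 YE libraries alone gave 4617 genes. A limma fit of the 6 YE libraries alone, without a block, gave 5452 genes. The equal-variance test gave 4218 genes, 1 for YE minus YC and 7 for YE minus OE. A pseudocount of 0.1 gave 1851 DEGs and 16 genes for YE minus OE, and the FPKM filter 13 for YE minus OE. Signs turned for Hlf, at 0.0164 without quantile normalization (-0.29 as reported), and for Tnni2, at -1.65 with median-ratio scaling and -1.39 without quantile normalization (0.04 as reported, not passing), where equal ranks give equal values. Other causes were not tested. Of 220 passing genes followed, 142 passed in every alternative. The FPKM give no read depth, so the precision of low genes is unknown, and 3 mice a group cannot reach p under 0.1 by permutation.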

Other observations

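Genes of the neuromuscular junction, where the nerve meets the fiber, also differed. Of 12, 6 were higher in SOL and 3 in GAS, against 17.5% and 16.7% of all genes, and 3 did not pass. The receptor kinase Musk, which clusters acetylcholine receptors, was at 16.8, 17.0 and 16.2 FPKM in SOL YE and at 8.00, 6.07 and 6.61 FPKM in GAS YE (log2 fold change 0.92), and its coreceptor Lrp4 at 5.98, 4.19 and 4.57 FPKM against 1.87, 1.88 and 1.28 FPKM (0.84). The receptor subunits parted, with Chrna1 at 12.4, 11.0 and 10.2 FPKM in SOL YE and 2.58, 3.86 and 3.03 FPKM in GAS YE (1.29), and the adult epsilon subunit Chrne at 6.00, 5.37 and 6.90 FPKM against 8.22, 9.01 and 9.25 FPKM (-0.75). Acetylcholinesterase (Ache), which ends the signal, was higher in GAS (-0.98) and Colq, which anchors it, in SOL (0.98).

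Among 17 genes of proteins secreted by muscle, 3 were higher in SOL and 3 in GAS. These shares are near those of all genes (17.5% and 16.7%). Fndc5, the precursor of irisin, was at 114.6, 126.7 and 118.3 FPKM in SOL YE and at 30.9, 42.4 and 23.2 FPKM in GAS YE (1.84), and the myostatin relative Gdf11 at 0.508, 0.401 and 0.438 FPKM against 3.16, 2.37 and 2.27 FPKM (-1.52). Of 12 genes of proteolysis and atrophy, 4 were higher in SOL and 2 in GAS, against 17.5% and 16.7% of all genes. In SOL 7 were higher with the mouse as a block or without quantile normalization. In GAS 4 were higher with median-ratio scaling, and 1 without GAS library 4 or SOL library 1. The mitophagy receptor Bnip3 was at 208.9, 209.2 and 233.8 FPKM in SOL YE and at 97.5, 95.7 and 101.3 FPKM in GAS YE (1.08), while the muscle ubiquitin ligases Trim63 and Fbxo32, markers of atrophy, did not pass (-0.44 and 0.43). Of 18 clock genes 1 was higher in SOL and 2 in GAS, against 17.5% and 16.7% of all genes. The count was not stable, with 2 in SOL and 5 in GAS without SOL library 1, 1 in each without GAS library 1 or SOL library 4, 2 in SOL and 1 in GAS without SOL library 2, 3 in each with the mouse as a block, 1 in SOL and 5 in GAS with median-ratio scaling, and 4 in SOL and 1 in GAS without quantile normalization. With all libraries, those that passed included Bhlhe41, a clock repressor, at 5.66, 4.71 and 4.87 FPKM in SOL YE and 12.5, 9.36 and 11.2 FPKM in GAS YE (-1.25).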
